A study of Homo sapiens with 8 samples.

Results

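BCL2 family genes were read across 8 libraries of nascent RNA from 2 human colorectal cancer cell lines. The 8 genes were chosen by symbol as regulators of mitochondrial survival and death, namely MCL1, BCL2, BCL2L2, BCL2L11 (which encodes BIM), BID, BIK, PMAIP1 (which encodes NOXA) and BAK1, and 7 of them had a row among the 18638 gene models of each count table. BCL2L2 was not analysed here. The assay was factory-seq, which digests DNA in isolated nuclei, lyses them and uses added caspases to release RNA that is still attached where it is made. The 8 libraries formed 4 groups of 2.

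DLD-1 cells were mAID-mClover-POLR2A(Tet-OsTIR1), so that RPB1, the catalytic subunit of RNA polymerase II, carried an auxin-inducible degron and a fluorescent tag. They were left untreated (control) or given 500 µM auxin for 14 h after 24 h of doxycycline, which induces the plant protein TIR1 needed for degradation. HCT116 cells carried the mAID degron on topoisomerase TOP2A. Their untreated TOP2A-mAID control group was set against a group labelled TOP2Bko in the titles and TO2B-/--TOP2A-mAID in the genotype field, written here as TOP2B-/-. For this last group the titles read control, whereas the treatment field gives 14 h of auxin (500 µM, after 24 h of doxycycline per the protocol) and the deposited count columns are also named for auxin, so genotype, auxin and doxycycline cannot be told apart in HCT116. Titles call all cells asynchronous, the labels mention a sort for G1 cells only where applicable, and they do not say whether untreated cells had doxycycline or whether each line came from 1 clone. The replicates may be technical, in which case p-values measure only the spread between these libraries.

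Proteins of the BCL2 family set the threshold for mitochondrial apoptosis. Pro-survival members such as MCL1 and BCL2 hold the pore-forming members BAK1 and BAX and the BH3-only members in check, while BH3-only members (BCL2L11, BID, BIK and PMAIP1) engage the pro-survival proteins or activate the pore formers directly, so that the outer mitochondrial membrane becomes permeable and cytochrome c is released. MCL1 and PMAIP1 are known for short-lived transcripts and proteins. Nascent RNA reports on RNA at the gene and not on the amount of these proteins.

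Total counts were 62626875 and 36906755 in the DLD-1 controls, 14183633 and 10739622 after auxin, and 32129400 to 36491540 in HCT116. The libraries also differed in reads over genes taken as silent. Each line had its own set of 3095, chosen from the controls of the other line. Their density corresponded to 2.25% and 9.05% of all reads in the DLD-1 controls, 39.5% and 59.7% after auxin, and 0.273% to 3.06% in HCT116. This density is called the background below, and a gene at 1 times background had as many reads as a silent gene of its length. Summed colon epithelial markers (8 genes) lay at 5582 to 7208 CPM (read counts relative to the library total, scaled by TMM, a trimmed mean that sets the bulk of genes equal between libraries) in the DLD-1 controls, 3724 to 5180 after auxin and 2903 to 5026 in HCT116, although VIL1 and CDX1 were near background in HCT116. In DLD-1 CDX1 was under background in every library. Of the targeted genes, POLR2A had a log2 fold change of -0.78 in DLD-1 (edgeR adjusted p = 0.0773), and in HCT116 TOP2A had -0.09 (adjusted p = 0.466) and TOP2B fell by 0.50 (adjusted p = 0.0269) with reads remaining, a call lost without either TOP2B-/- library (-0.56 and -0.49).

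Promoter sequence from RefSeq (GRCh38.p14) was matched by symbol for 5 of the 8 genes. It is shown for BCL2L11 and BAK1, whose TMM-scaled nascent RNA fell in DLD-1 cells after auxin, and for PMAIP1 and BCL2, whose nascent RNA rose. These directions are relative to all other RNA in the libraries. Background reads were a large part of the counts of BCL2L11, BAK1 and BCL2 after auxin. Capitals mark matches on either strand, so that a reverse complement is also in capitals, of the GC box GGGCGG, of the CCAAT box, of the TATA box spelled TATAAA, and of the core of the CRE motif, TGACG. The windows end at the start of the gene model or, for BCL2, 389 bases upstream of it. They lie on GRCh38 at chr2:111120664-111120913 (plus strand), chr6:33580294-33580526 (minus), chr18:59899746-59899959 (plus) and chr18:63319770-63320019 (minus), in this order.
BCL2L11: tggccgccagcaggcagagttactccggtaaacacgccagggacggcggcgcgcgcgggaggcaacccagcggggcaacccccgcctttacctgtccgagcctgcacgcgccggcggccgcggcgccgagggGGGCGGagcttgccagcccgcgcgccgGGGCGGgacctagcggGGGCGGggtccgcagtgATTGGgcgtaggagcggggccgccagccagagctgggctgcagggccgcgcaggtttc
BAK1: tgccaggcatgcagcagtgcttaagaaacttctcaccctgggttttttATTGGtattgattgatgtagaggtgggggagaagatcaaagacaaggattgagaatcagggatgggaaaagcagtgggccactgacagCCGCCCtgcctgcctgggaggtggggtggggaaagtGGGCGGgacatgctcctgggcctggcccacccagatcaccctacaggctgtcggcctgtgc
PMAIP1: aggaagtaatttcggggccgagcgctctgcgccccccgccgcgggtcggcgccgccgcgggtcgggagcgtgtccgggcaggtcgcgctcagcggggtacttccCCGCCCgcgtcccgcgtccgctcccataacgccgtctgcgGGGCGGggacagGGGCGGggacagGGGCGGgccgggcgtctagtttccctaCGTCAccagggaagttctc
BCL2: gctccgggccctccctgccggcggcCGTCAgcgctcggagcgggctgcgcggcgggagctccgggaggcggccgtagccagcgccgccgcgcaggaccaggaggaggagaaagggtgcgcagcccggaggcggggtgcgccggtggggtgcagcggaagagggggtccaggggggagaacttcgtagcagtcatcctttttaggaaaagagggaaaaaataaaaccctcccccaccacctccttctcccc

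These windows differed in base composition, with 76.8% G or C in BCL2L11, 57.1% in BAK1, 74.8% in PMAIP1 and 70.0% in BCL2. GC boxes were found 3 times for BCL2L11, 2 times for BAK1 and 4 times for PMAIP1, and 0 times for BCL2, against at least 1 in 42.6% of 35116 promoter windows of 250 bases. A CCAAT match was present in BCL2L11 and BAK1 (1 each) and in 32.0% of all windows. MCL1 and BIK, which also fell, had no promoter entry, and the windows of BID, not shown, held 0 matches of any of the motifs. The TGACG core occurred 1 time in each of the genes that rose and in 21.2% of all windows, and TATAAA, found in 10.7% of windows, was in none of the 4. A match is a string of letters and was not tested for binding, nor was a link between motifs and direction tested.

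Levels of different genes were compared per kb of counted length, since the gene models span 4.35 kb (PMAIP1) to 196.04 kb (BCL2) and introns were counted. In DLD-1 controls the order was MCL1 (27.7 CPM per kb), PMAIP1 (3.52), BCL2L11 (0.854), BIK (0.799), BAK1 (0.585), BID (0.563) and BCL2 (0.0883), beside a median of 0.560 over all gene models. MCL1, a pro-survival protein, thus stood far above the other members and BCL2 stood last. Neighbours in this order did not overlap between their 2 libraries, except BAK1 and BID.

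In HCT116 controls MCL1 (32.8 CPM per kb) and PMAIP1 (7.27) were again the highest and BCL2 (0.0603) the lowest. Between them came BAK1 (2.61), BIK (1.43), BCL2L11 (0.776) and BID (0.648), so that the pore former BAK1 stood next after PMAIP1 in HCT116 and below BCL2L11 and BIK in DLD-1. The libraries labelled TOP2B-/- kept this order, with 28.8 CPM per kb for MCL1, 8.04 for PMAIP1, 2.27 for BAK1, 1.22 for BIK, 0.853 for BCL2L11, 0.677 for BID and 0.0896 for BCL2, and no neighbours overlapped in either HCT116 group. The tables of the 2 lines were normalized separately, and no test was made between them.

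After auxin the order in DLD-1 became MCL1 (13.2 CPM per kb), PMAIP1 (6.54), BCL2 (0.782), BID (0.488), BCL2L11 (0.447), BIK (0.339) and BAK1 (0.255). BCL2 moved from last to next after PMAIP1, though far below it, and no neighbours overlapped. After auxin BCL2 lay at 2.97 and 1.76 times background, and BID, BCL2L11, BIK and BAK1 at 0.644 to 1.77 times. The ranks below PMAIP1 thus include a large part of background reads. The median over all gene models was 0.514, and 4 members lay below it.

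**Figure D1:**
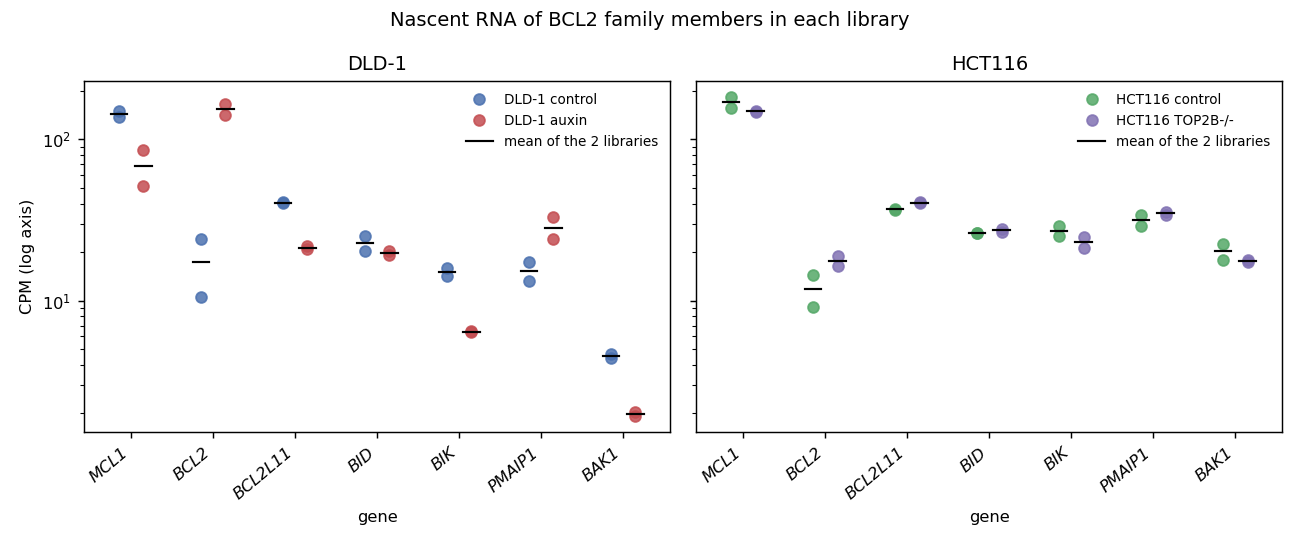
Nascent RNA (CPM, log axis) of the 7 members with a row, with 1 point per library and a line at the mean of the 2 libraries of a group, for DLD-1 (left) and HCT116 (right). BCL2 rises from 10.6 and 24.1 CPM to 165.6 and 141.1 in DLD-1 after auxin, while MCL1, BCL2L11, BIK and BAK1 lie lower and the HCT116 groups lie close together.

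The DLD-1 comparison asks how nascent RNA of these genes differed once RPB1 was targeted for degradation. Relative to all other RNA in the libraries, 4 members fell (MCL1, BCL2L11, BIK and BAK1), 2 rose (BCL2 and PMAIP1) and BID did not pass the test. By edgeR's quasi-likelihood test at an adjusted p under 0.05, 6 of 7 members were called, against 67.3% of 17625 genes tested; 35.0% of genes fell and 32.2% rose. The groups did not overlap in CPM for 6 of 7 members, 2 higher and 4 lower, against 91.0% of genes (44.7% higher and 46.3% lower). By library totals alone 7544 genes rose and 3377 fell, against 5678 and 6177 with TMM. The members' median log2 fold change was -0.93 and that of all genes -0.06. A call here is therefore common, and these libraries show relative amounts only. The labels give the same approximate cell input for all libraries, but fewer cells of a kind and less RNA per cell cannot be told apart in bulk RNA, and a fall shared by all genes would not be seen.

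Of the pro-survival members, MCL1, which sequesters BAK1 and BH3-only proteins, is a short gene at chr1:150574551-150579738. It had 149.6 and 138.1 CPM in controls and 86.0 and 51.2 CPM after auxin (7270, 4221, 1481 and 704 reads). Both auxin libraries were lower than both controls, and the second auxin library was the lowest. This was a log2 fold change of -1.07 (SE 0.287, 95% interval -1.82 to -0.32, edgeR adjusted p = 0.0304). MCL1 remained 58.2 and 24.2 times above background after auxin, the highest of the members, compared with 1137 and 279 times in controls. The call depended on scaling, with -0.44 by library totals alone (not called) and 0.18 with background-subtracted counts (adjusted p = 0.163), and it was lost without auxin replicate 2 (-0.75).

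BCL2, the founding pro-survival member, covers a long gene at chr18:63123346-63319380 and moved the other way. It had 10.6 and 24.1 CPM in controls and 165.6 and 141.1 CPM after auxin (513, 735, 2854 and 1941 reads). Both auxin libraries exceeded both controls, and the second control was the higher of the controls. Its log2 fold change was 3.15 (SE 0.448, 95% interval 1.98 to 4.32, edgeR adjusted p = 0.00759), equal to 8.88-fold, the largest change among the members.

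Silent genes rose in the same libraries, with a median log2 fold change of 2.51 over the 2904 that were tested, against -0.45 for the other genes. BCL2 had 2.12 and 1.28 times the background in controls and 2.97 and 1.76 times after auxin, the only member whose lowest control was under 2 times. Among silent genes, 88.2% and 78.8% lay at or below its ratio in the controls, and 97.6% and 95.8% after auxin. With background-subtracted counts BCL2 had 271 and 162 reads in controls and 1892 and 841 after auxin, and a log2 fold change of 5.25 that was still called. The part of background reads in its rise was not tested further. BCL2 was not called without auxin replicate 1 (3.13) or 2 (3.27).

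**Figure D2:**
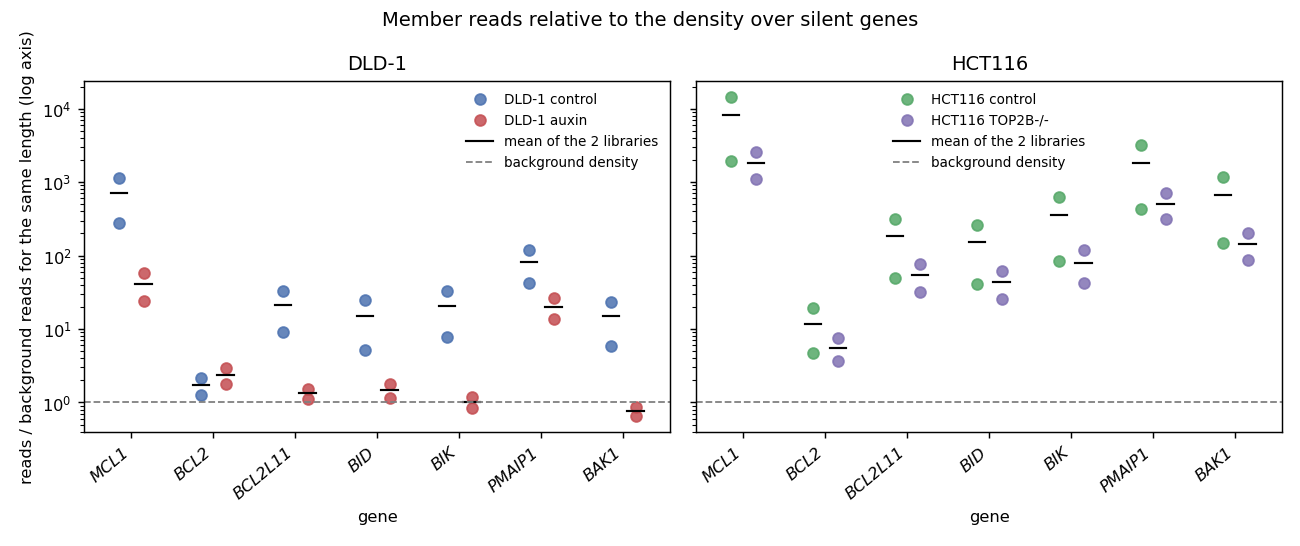
Reads of each member divided by the background reads expected over the same length (log axis), with 1 point per library, lines at the mean of 2 libraries and a dashed line at 1. After auxin BCL2L11, BID, BIK and BAK1 sit near the dashed line in DLD-1, while MCL1 and PMAIP1 stay at 13.5 times or more, and in HCT116 the lowest value is 3.66, for BCL2.

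BH3-only genes did not move together. BCL2L11, whose product BIM can bind every pro-survival member, had 40.2 and 41.0 CPM in controls and 20.8 and 21.7 CPM after auxin (1952, 1253, 358 and 299 reads) at chr2:111120914-111168445. Replicates lay within about 1 CPM of each other and the groups were clearly apart. The log2 fold change was -0.93 (SE 0.182, 95% interval -1.41 to -0.46, edgeR adjusted p = 0.0158), from 33.3 and 9.02 times background to 1.54 and 1.12 times. It was -0.29 with library totals alone and -0.54 among genes of mean CPM of at least 5, neither of which was called, and -1.76, called, with background-subtracted counts. Without auxin replicate 1 or 2 it was -0.80 or -0.97 and not called.

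BIK, a BH3-only protein of the endoplasmic reticulum (chr22:43110748-43129712), had 16.0 and 14.3 CPM in controls and 6.38 and 6.47 CPM after auxin. Its log2 fold change of -1.24 (SE 0.270, 95% interval -1.94 to -0.53, edgeR adjusted p = 0.0202) was the lowest among the members, within the SE of that of BAK1. The auxin libraries held 110 and 89 reads, at 1.18 and 0.836 times background, so that its remaining signal was that of a silent gene of its length. The fall was not called with library totals alone (-0.60), after background subtraction (-3.66, adjusted p = 0.0812) or without auxin replicate 1 (-1.13) or 2 (-1.25).

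PMAIP1 was the BH3-only gene that rose. NOXA, its product, binds MCL1 and promotes its turnover, and the gene is the shortest of the members, at chr18:59899960-59904306. It had 13.3 and 17.3 CPM in controls and 32.8 and 24.0 CPM after auxin (646, 530, 566 and 330 reads), and both auxin libraries exceeded both controls. PMAIP1 thus had a log2 fold change of 0.89 (SE 0.280, 95% interval 0.16 to 1.62, edgeR adjusted p = 0.0418). PMAIP1 stood at 120.6 and 41.7 times background in controls and 26.5 and 13.5 times after auxin, so background reads over so short a model were few. It stayed called by library totals alone (1.52) and after background subtraction (2.14), and was not called without control replicate 1 (0.71) or without auxin replicate 1 (0.75) or 2 (1.10).

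BID, which is cleaved by caspase-8 and links death receptors to mitochondria, did not pass the test. It had 25.2 and 20.3 CPM in controls and 20.4 and 19.1 CPM after auxin at chr22:17734140-17774665, and the groups overlapped. The log2 fold change was -0.20 (95% interval -0.80 to 0.39, edgeR adjusted p = 0.449). Its reads went from 24.6 and 5.25 times background to 1.77 and 1.16 times, and its direction was opposite with library totals alone (0.44).

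BAK1, the pore former among the members, had the fewest reads: 226 and 135 in controls and 33 and 28 after auxin, over chr6:33572546-33580293. In CPM these were 4.65 and 4.42 against 1.92 and 2.04, and the groups did not overlap. The log2 fold change was -1.20 (SE 0.380, 95% interval -2.19 to -0.20, edgeR adjusted p = 0.0430). After auxin BAK1 lay at 0.868 and 0.644 times background, and background subtraction left 0 reads in both auxin libraries. The call was lost with library totals alone (-0.56), with RLE scaling, which uses median ratios (-1.10), and without auxin replicate 1 (-1.06) or 2 (-1.24).

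**Figure D3:**
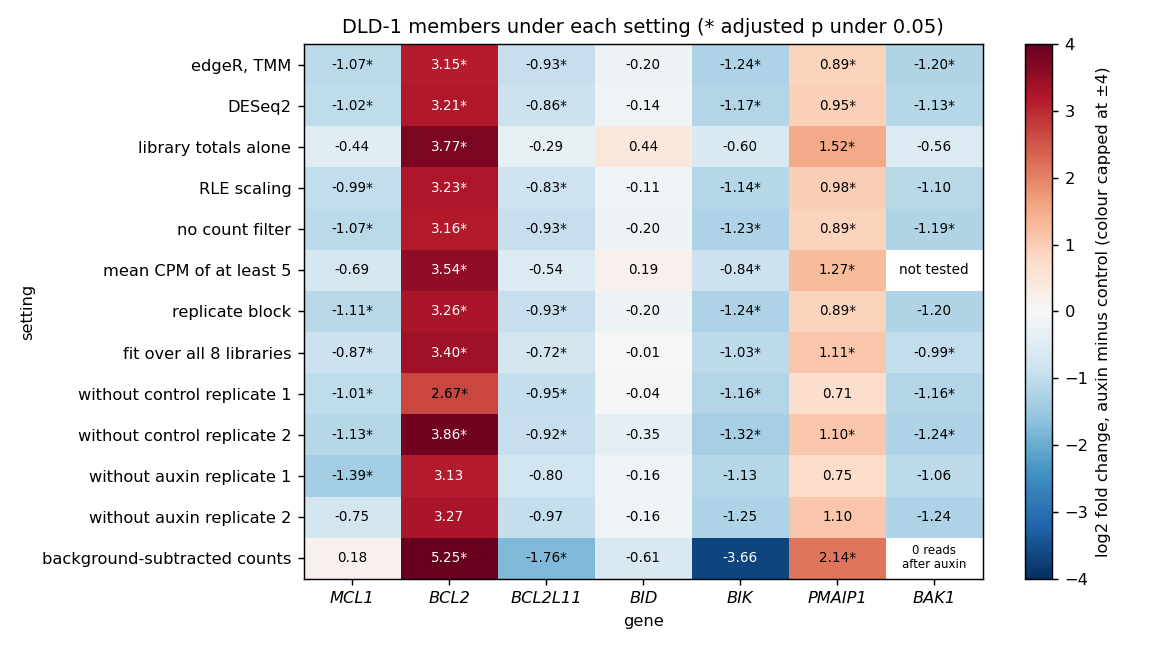
Log2 fold change of each member in DLD-1 (auxin minus control) under 13 settings, by colour and number, with an asterisk where the adjusted p was under 0.05. BCL2 and PMAIP1 are above 0 in every row, MCL1 turns to 0.18 with background-subtracted counts, and BID is called in none.

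Ratios between members within a library do not depend on the scaling of that library. MCL1 per kb was 9.43 and 6.68 times PMAIP1 in DLD-1 controls and 2.19 and 1.79 times after auxin. This ratio does not show whether MCL1 fell or PMAIP1 rose. With background-subtracted counts MCL1 had a log2 fold change of 0.18 and PMAIP1 one of 2.14. In HCT116 the same ratio was 4.51 and 4.50 in controls and 3.62 and 3.55 in the libraries labelled TOP2B-/-. The MCL1 to BAK1 ratio was 13.0 and 12.1 in HCT116 controls and 12.4 and 12.9 in the libraries labelled TOP2B-/-, which overlap. It was 48.1 and 46.7 in DLD-1 controls and is not read after auxin, where BAK1 was under background. With 2 libraries a group these ratios carry no test.

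The HCT116 comparison asks whether the same genes differed between TOP2A-mAID controls and the libraries labelled TOP2B-/-. No member passed: edgeR called 0 of 7, with 0 at an unadjusted p under 0.05, and DESeq2 called 0, with 1 at an unadjusted p under 0.05, against 3.41% of 15273 genes called by edgeR (1.75% higher and 1.66% lower). The groups did not overlap for 7 of 7 members, 4 higher and 3 lower, against 55.3% of all genes. The median log2 fold change of the members was 0.06 and that of all genes 0.03. The members' reads were 3.66 to 14401 times background in these libraries, so background reads were a smaller part of each value than in DLD-1 after auxin.

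MCL1 had 156.8 and 183.1 CPM in HCT116 controls and 147.9 and 150.9 CPM in the libraries labelled TOP2B-/-. The latter were lower than both controls, and the group means (170.0 and 149.4 CPM) differed by less than the controls differed from each other. This gave a log2 fold change of -0.19 (95% interval -0.43 to 0.06, edgeR adjusted p = 0.309). BCL2 had 14.5 and 9.16 CPM in controls and 16.3 and 18.8 CPM in the libraries labelled TOP2B-/-, with a log2 fold change of 0.57 (95% interval -0.16 to 1.30, adjusted p = 0.301), the widest interval of the members. Without control replicate 1 both were called, MCL1 at -0.30 (adjusted p = 0.0298) and BCL2 at 0.93 (adjusted p = 0.0363).

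Of the BH3-only genes, BCL2L11 and BID had the closest replicates in HCT116. BCL2L11 had 36.7 and 37.0 CPM in controls and 40.8 and 40.2 CPM in the libraries labelled TOP2B-/- (log2 fold change 0.14, 95% interval -0.01 to 0.28, edgeR adjusted p = 0.239). BID had 26.3 and 26.2 against 27.9 and 26.8 CPM (0.06, interval -0.15 to 0.27, adjusted p = 0.660). PMAIP1 had 29.1 and 34.1 against 34.2 and 35.6 CPM (0.14, interval -0.14 to 0.42, adjusted p = 0.475). BCL2L11, BID and PMAIP1 were thus higher in both second-group libraries by amounts that did not pass the test. BIK had 25.4 and 28.9 against 24.9 and 21.1 CPM (-0.23, interval -0.60 to 0.13, adjusted p = 0.377). BAK1 had 17.96 and 22.6 against 17.8 and 17.4 CPM (-0.20, interval -0.61 to 0.20, adjusted p = 0.484). These 95% intervals exclude changes as large as those of BCL2L11, BIK and BAK1 in DLD-1, but the lines also differ in treatment and background and were not compared by a test.

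The 9 further core genes of the family were not members. In DLD-1 2 of them rose and 2 fell. BCL2L1, which encodes the pro-survival protein BCL-XL (chr20:31664458-31722853), had 524.7 and 416.6 CPM in controls and 37.4 and 31.0 CPM after auxin. It was lower in both auxin libraries by a wide margin, with a log2 fold change of -3.78 (SE 0.229, edgeR adjusted p = 0.00421), and it was called under every setting tried, between -3.94 and -3.14. Its ratio per kb to MCL1 went from 0.311 and 0.268 in controls to 0.0386 and 0.0537 after auxin, and its reads from 354 and 74.6 times background to 2.25 and 1.30 times.

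BOK, a pore-forming relative of BAK1, fell by 1.29 on the log2 scale (edgeR adjusted p = 0.0289). The pro-survival gene BCL2L10 and the BH3-only gene HRK rose, by 2.89 (adjusted p = 0.0194) and 2.02 (adjusted p = 0.0472), beside a median of 2.51 over silent genes. BCL2L10 lay at 2.08 and 1.17 times background in controls and 2.27 and 1.37 times after auxin. Relative to background HRK was lower after auxin, at 1.07 and 1.10 times against 1.78 and 1.48 times in controls. BOK, BCL2L10 and HRK each lost the call without either auxin library. The others were not called: BAX, the second main pore former, had -0.89 (adjusted p = 0.0592), the BH3-only genes BAD, BBC3 (PUMA) and BMF had -1.11, -0.15 and -0.45, and the pro-survival gene BCL2A1 had 2.29 (adjusted p = 0.0778). BAD overlaps GPR137 on the opposite strand, and reads of the pair cannot be told apart without strand.

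In HCT116 BCL2L1 was also the core gene that passed, with 516.3 and 526.8 CPM in controls and 355.1 and 339.7 CPM in the libraries labelled TOP2B-/- (log2 fold change -0.59, SE 0.0428, edgeR adjusted p = 0.0254). BCL2L1 lies on chromosome 20, whose 405 tested genes had a median log2 fold change of -0.56, whereas the medians of other autosomes were -0.17 to 0.17. The part of a chromosome-wide shift in its value was not tested. The fall was not called without TOP2B-/- replicate 1 (-0.66) or 2 (-0.56), and none of the 7 members lies on chromosome 20. BBC3 (-0.81, adjusted p = 0.0979) and BMF (-1.20, adjusted p = 0.132) were lower in both libraries without passing, although DESeq2 called BBC3 (-0.83), BAX had -0.16, and BCL2A1 and BCL2L10 had too few reads to be tested.

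**Figure D4:**
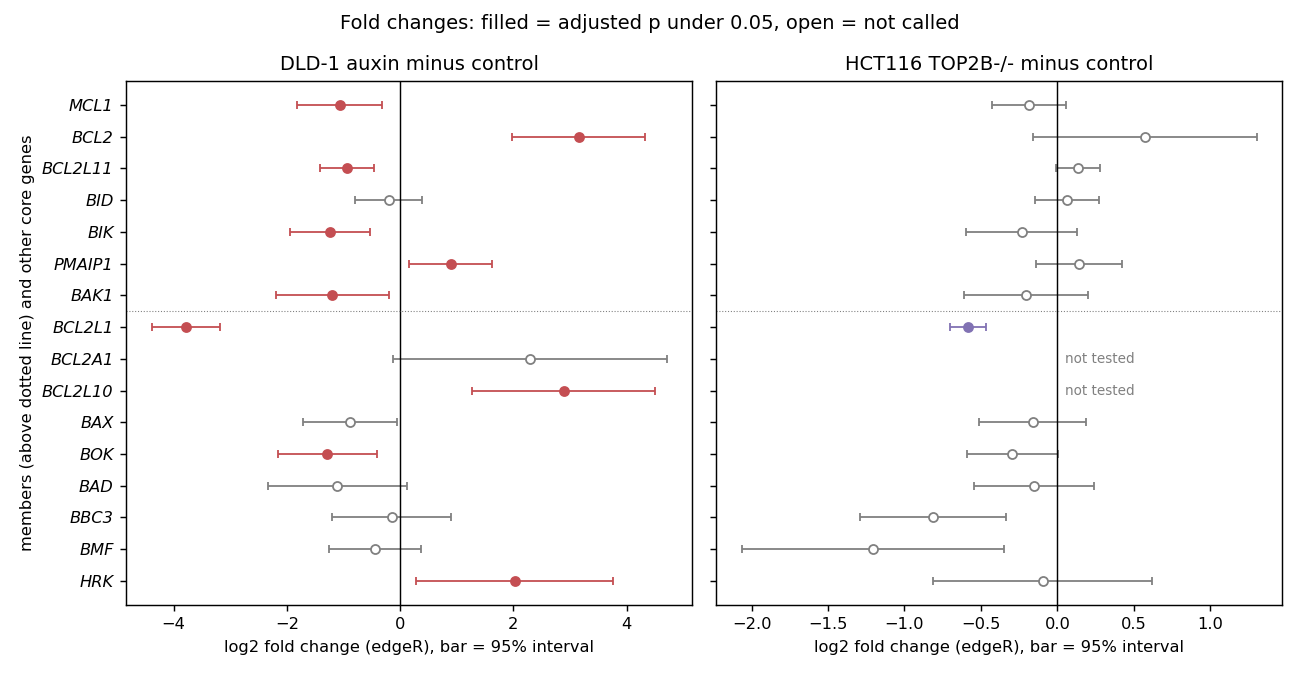
Log2 fold change (edgeR) with its 95% interval for the 7 members, above the dotted line, and 9 other core genes of the family, in DLD-1 (left) and HCT116 (right, another axis range), with filled points at an adjusted p under 0.05. In DLD-1 6 members are filled, 4 of them below 0, and in HCT116 BCL2L1 at -0.59 is the filled point.

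Genes around the family were read from lists chosen by role, beside the 35.0% of all genes that fell and 32.2% that rose in DLD-1. In DLD-1, genes that control MCL1 turnover or BAK1 import fell in 6 of 8 tested and rose in 0 (median log2 fold change -1.11, against -0.06 for all genes). Those that fell included the ubiquitin ligase subunits BTRC (-1.39, edgeR adjusted p = 0.00577) and FBXW7 (-1.16, adjusted p = 0.0157), the ligase HUWE1, also called MULE (-1.75, adjusted p = 0.0105), and the deubiquitinase USP9X (-1.40, adjusted p = 0.0136). The list had 3 lower and 1 higher (median -0.47) by library totals alone, and 3 lower and 2 higher (median -0.29) with background-subtracted counts. In HCT116 0 of these 8 were called by edgeR or DESeq2, with 1 at an unadjusted p under 0.05 in each (median -0.06).

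Transcriptional regulators of BH3-only genes fell in 6 of 9 and rose in 1 in DLD-1 (median -1.04). FOXO3, a factor known to drive BCL2L11, fell by 1.79 (edgeR adjusted p = 0.00421), FOXO1 by 1.23 (adjusted p = 0.00777), and the stress factors DDIT3 and ATF4 by 2.30 and 1.04 (adjusted p = 0.00991 and 0.0158). After auxin FOXO3 lay at 1.43 and 1.15 times background and FOXO1 at 2.30 and 1.43 times, with DDIT3 and ATF4 at 3.39 times or more. A link between FOXO3 and BCL2L11 was not tested. ATF3 was the gene that rose, at 0.83 (adjusted p = 0.0388), but it went from 9.92 and 3.35 times background in controls to 1.97 and 1.11 times after auxin. With background-subtracted counts the list's median was 0.22 and ATF4 had 0.26, so the list's direction depended on how background was treated. In HCT116 edgeR called 0 of 9, with 6 at an unadjusted p under 0.05, and DESeq2 called 4, and all 9 had a log2 fold change below 0 in edgeR (median -0.29). Over all genes in HCT116, 3492 of 15273 were at an unadjusted p under 0.05 in edgeR and DESeq2 called 1851 of 12095.

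Death receptor genes fell in 7 of 10 and rose in 1 in DLD-1 (median -1.39). TNFRSF1A, the TNF receptor, fell by 2.35, the TRAIL receptors TNFRSF10B and TNFRSF10A by 1.93 and 1.22, and the adaptor FADD by 2.28 (edgeR adjusted p = 0.00422, 0.00425, 0.00841 and 0.00901), while FASLG, the ligand of FAS, rose by 2.58 (adjusted p = 0.0302). Relative to background FASLG changed little, at 2.37 and 1.96 times in controls and 2.07 and 2.15 times after auxin. In HCT116 1 of 9 was called, the kinase RIPK1, which rose by 0.43 (adjusted p = 0.0352) and was not called without control replicate 2 or either TOP2B-/- library. Of these 9, 4 were at an unadjusted p under 0.05 in edgeR, and DESeq2 called 3 of 8 tested (2 higher and 1 lower).

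Apoptosome and caspase genes fell in 7 of 15 and rose in 1 in DLD-1 (median -0.78), or 1 of 15 lower and 2 higher with library totals alone. CASP2, CASP10 and CASP8 fell by 1.58, 0.87 and 0.94 (edgeR adjusted p = 0.00687, 0.0142 and 0.0175), and CYCS, which encodes the cytochrome c that these pores release, rose by 1.19 (adjusted p = 0.0184). Inhibitor of apoptosis genes fell in 3 of 6 tested and rose in 0, namely XIAP (-1.47, adjusted p = 0.00695), BIRC6 (-1.43, adjusted p = 0.0131) and BIRC2 (-0.70, adjusted p = 0.0407, but 0.26 with background-subtracted counts). BCL2-like and BNIP genes fell in 3 of 9 and rose in 0, namely BCL2L13 (-0.84, adjusted p = 0.0135), BNIP2 (-1.04, adjusted p = 0.0160) and BCL2L14 (-2.73, adjusted p = 0.0206). BCL2L14 had few reads, at 3.53 and 0.762 times background in controls and 0.0567 and 0.0186 times after auxin. The medians of the inhibitor and BCL2-like lists were -0.24 and -0.05, and 0.39 and 0.59 by library totals alone. The BCL2-like and BNIP calls turned round with processing, to 3 higher and 1 lower both by library totals alone and after background subtraction (median 0.80). In HCT116 edgeR called 0 genes of these 3 lists, among 15, 6 and 8 tested, with 3, 0 and 2 at an unadjusted p under 0.05, and DESeq2 called 2, 0 and 1.

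Of the list genes named by rule in DLD-1, CASP2, XIAP, TNFRSF1A, TNFRSF10B, BTRC, FOXO3, DDIT3 and CDX2 were called under every setting tried. The others lost the call in at least 1 setting, most often without an auxin library.

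Silent genes had a median log2 fold change of 2.51 in DLD-1, where 32.2% of all genes rose. Markers of other cell types rose in 4 of 6 there (median 2.53): PECAM1 by 4.29, COL1A1 by 2.23, PTPRC by 2.59 and PDGFRA by 2.62 (edgeR adjusted p = 0.0130, 0.0293, 0.0320 and 0.0398). Their sum was 5.15 and 23.0 CPM in controls and 140.7 and 138.2 after auxin, none of the 6 was at 0, and after auxin they lay at 1.10 times background or less, apart from PECAM1 (4.80 and 2.49 times). In HCT116 their sum was 46.2 and 47.5 CPM in controls and 33.5 and 30.2 in the libraries labelled TOP2B-/-, most of it COL1A1 (42.3, 46.6, 31.1 and 24.7 CPM, at 53.6 to 1083 times background), and edgeR called 0 of 5, with 1 at an unadjusted p under 0.05, and DESeq2 called 1. These markers rose together with BCL2, BCL2L10 and HRK after auxin, and their part in those results was not tested. Of 8 epithelial markers, CDX2, KRT19 and KRT18 fell by 3.51, 1.62 and 1.72 and CDX1 rose by 2.85 (median of the 8 -0.35), but with background-subtracted counts 4 were called higher and 1 lower (median 0.90). CDX1 was under background throughout DLD-1, at 0.502 and 0.597 times in controls and 0.470 and 0.882 times after auxin. In HCT116 CDH1 fell by 0.69 (edgeR adjusted p = 0.0255), the 1 call among 7 markers (median -0.47, 5 at an unadjusted p under 0.05, and 5 called lower by DESeq2), and it was lost without either TOP2B-/- library.

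The genes whose log2 CPM ran most alike over the 8 libraries, among 12758 compared, were PPP1R15B, C21orf59 and ZC3H18 for MCL1 (Pearson r 0.998, 0.997 and 0.996). For BCL2 they were CLCN1, DOCK11 and LMO1 (0.998, 0.997 and 0.996), and for PMAIP1 PM20D2, ISCA1 and POLG2 (0.987, 0.983 and 0.975). These values describe 8 libraries that share 2 cell lines and differ in background, and carry no p.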

How the data were processed

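Nascent RNA of 8 factory-seq libraries was read from raw counts that the authors deposited as 1 table per cell line, with introns counted and library kits given as TruSeq. STAR, DESeq2 and hg38 are named in the submitters' processing notes, without version or role, and strand use was not given in the sources used here. The authors' tables of changed genes (fold changes, p-values and normalized values) were not used, and the paper supplied describes another experiment. Each line's 4 libraries were fitted on all genes with edgeR 4.0.16 in R 4.3.3 (filterByExpr, TMM, quasi-likelihood test, two-sided), with Benjamini-Hochberg adjustment at 0.05 and 2 residual degrees of freedom. CPM is per library after TMM, and levels between genes are CPM per kb of counted length. The members and lists were chosen with earlier results of these data known. Silent genes were the lowest 20% of each chromosome except Y by read density in controls of the other line, among models of 5000 bp or more. Background-subtracted counts are counts less the silent density over the same length. The text names all members, the 9 other core genes, up to 4 called genes per list by adjusted p, the 3 genes most alike, and the targeted genes, while CYCS, FASLG and ATF3 were named after their values were seen, and 1 gene that the rule names is not reported here. Intervals on counts would cover counting error only. The fit was tested on simulated data. Alternatives were DESeq2 1.42.0, library totals, RLE, no filter, mean CPM of at least 5, the replicate block, all 8 libraries, background subtraction and leaving out each library. BCL2L2 was not analysed here.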

Additional observations from a re-analysis of the deposited data

How the results depend on the processing

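Of 6 members called in DLD-1, 6 were called by DESeq2, without a count filter and in a fit over all 8 libraries, 5 with RLE scaling, 4 with background-subtracted counts, 3 among genes of mean CPM of at least 5 (where BAK1 was not tested), 2 with library totals alone, and 0 to 6 when a library was left out (0 without auxin replicate 2, 1 without auxin replicate 1). Over all genes, 11855 calls became 2393 to 12732 on leaving out a library (2393 without auxin replicate 1 and 3165 without auxin replicate 2), the lone library then being assumed to vary like the other group. In HCT116 the 521 genes called became 1851 by DESeq2, 1221 at mean CPM of at least 5, 2371 with background-subtracted counts, 5 in the fit over all 8 libraries, and 0 to 2519 on leaving out a library (0 without TOP2B-/- replicate 1 or 2, with 2266 and 1286 at an unadjusted p under 0.05), and the 0 members called stayed at 0 except for 0 to 2 on leaving out a library (2 without control replicate 1). Replicate numbers are shared by the groups, but with 2 pairs they do not establish pairing: deviations of same-numbered libraries correlated at 0.56 in DLD-1 and -0.82 in HCT116. With the replicate number as a block, edgeR called 5 members in DLD-1 (BAK1 lost), and 0 genes and 0 members in HCT116 (2177 genes at an unadjusted p under 0.05). With crossed numbers, chosen after seeing the data, 2 members were called in DLD-1 and 1808 genes in HCT116.

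Log2 fold changes that took the opposite sign in DLD-1 were those of MCL1 (0.18), BIRC2 (0.26), ATF4 (0.26) and POLR2A (0.42) with background-subtracted counts, of BID (0.44), BBC3 (0.50) and BMF (0.18) with library totals alone, of BID (0.19) and BBC3 (0.26) at mean CPM of at least 5, and of BBC3 over all 8 libraries (0.066) and on leaving out a library (-0.60 to 0.29, above 0 without auxin replicate 1). In HCT116 they were those of POLR2A by library totals alone (0.0135) and after background subtraction (0.0315), and, on leaving out a library, of BID (-0.0099 to 0.0905, below 0 without control replicate 2 or TOP2B-/- replicate 1), HRK (-0.30 to 0.065, above 0 without control replicate 2) and POLR2A (-0.16 to 0.094, above 0 without TOP2B-/- replicate 2). The cause of these changes was not tested. Library totals alone moved the median log2 fold change of all genes in DLD-1 from -0.06 to 0.57. Low counts limit BAK1 and BIK after auxin. Background reads limit BCL2, BCL2L11, BID, BIK and BAK1 there, which lay at 0.644 to 2.97 times background. The 2 libraries a group limit every call.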
